A study of Homo sapiens with 25 samples.

Results

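Peaks of histone marks, of the histone demethylase LSD1 (KDM1A) and of the repressor GFI1 were examined around 7 genes known from monocytes and macrophages: CD14, LY96, LYZ, CSF1R, CCR1, CD86 and VCAN. Each gene was represented by 1 window of 40 to 150 kb on the hg18 build, set by position, and every deposited peak that overlapped a window by at least 1 base was taken. The genes were picked with earlier results of these data known. The 7 windows held 670 of the 918840 peaks in the 23 lists of the series. CSF1R had 182 of them, LYZ 113, CD14 108, CD86 99, CCR1 97, LY96 36 and VCAN 35.

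All groups were of NB4, a cell line established from a human acute promyelocytic leukemia, and the labels name no genetic change in any of them. Cells were treated for 24 h with MC_2580, an LSD1 inhibitor, with MC_2580 plus retinoic acid (RA) at 0.01 µM (the combination), with RA alone at 0.01 µM (low-dose RA) or at 1 µM (high-dose RA), or with the solvent DMSO. Chromatin immunoprecipitation with sequencing was run in all 5 conditions for the marks H3K4me1, H3K4me2, H3K4me3 and H3K27ac, for LSD1 with MC_2580 and in DMSO, and for GFI1 in untreated cells. Every group was 1 library, so no difference below has a replicate check or a p-value. For H3K4me3 the combination sample carries RA 1 µM in its title and 0.01 µM in its treatment field, and a wrong dose would change every H3K4me3 value of the combination given here. The labels give no dose for MC_2580.

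LSD1 removes methyl groups from mono- and dimethylated lysine 4 of histone H3 and is held on chromatin by repressors such as GFI1, which binds LSD1 through its SNAG domain and, in the mouse, is known to restrain monocyte genes in cells that become granulocytes. H3K4me1 and H3K4me2 are found at enhancers and promoters, H3K4me3 mainly at promoters, and H3K27ac at active elements of either kind. PU.1, an ETS family factor, is a main activator of monocyte genes.

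Promoter sequences are shown for 4 members whose windows held both LSD1 and GFI1 peaks, so that the letters of a GFI1 and an ETS motif can be looked for at the gene starts. RefSeq promoters on GRCh38.p14, reaching from 250 bases before to 50 bases after a start, were listed for 5 of the 7 members, with 7 promoters in all. Those of LY96 and LYZ are not shown. Both strands were searched for the core of the GFI1 motif, AATC or, on the other strand, GATT, and for a purine-rich ETS core, GAGGAA or, on the other strand, TTCCTC. Capitals mark these matches, and each sequence runs 5′ to 3′ on the strand of its gene. The CD86 promoter at chr3:122055112-122055411 (plus strand), that of CD14 at chr5:140633126-140633425 (minus strand) and that of CSF1R at chr5:150086505-150086804 (minus strand) are the 3 that held GAGGAA, and that of CCR1 at chr3:46208264-46208563 (minus strand) is given as 1 without it.
CD86: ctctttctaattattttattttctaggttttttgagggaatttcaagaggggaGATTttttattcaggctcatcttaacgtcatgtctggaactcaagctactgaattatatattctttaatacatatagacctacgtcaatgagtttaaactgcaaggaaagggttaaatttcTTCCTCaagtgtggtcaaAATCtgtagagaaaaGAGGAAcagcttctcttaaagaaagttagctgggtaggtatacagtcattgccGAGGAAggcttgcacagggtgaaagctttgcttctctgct
CD14: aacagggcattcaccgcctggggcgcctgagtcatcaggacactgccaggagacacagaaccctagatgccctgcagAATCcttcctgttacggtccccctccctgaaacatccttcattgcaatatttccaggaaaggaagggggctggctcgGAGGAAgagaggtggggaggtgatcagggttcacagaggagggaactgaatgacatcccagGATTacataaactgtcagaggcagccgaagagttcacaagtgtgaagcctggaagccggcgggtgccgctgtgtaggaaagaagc
CSF1R: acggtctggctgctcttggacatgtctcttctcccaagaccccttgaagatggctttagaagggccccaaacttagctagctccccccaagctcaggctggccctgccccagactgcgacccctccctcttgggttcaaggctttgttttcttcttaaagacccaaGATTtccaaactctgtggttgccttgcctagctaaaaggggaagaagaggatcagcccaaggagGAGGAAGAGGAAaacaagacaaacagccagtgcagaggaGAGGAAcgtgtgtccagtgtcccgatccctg
CCR1: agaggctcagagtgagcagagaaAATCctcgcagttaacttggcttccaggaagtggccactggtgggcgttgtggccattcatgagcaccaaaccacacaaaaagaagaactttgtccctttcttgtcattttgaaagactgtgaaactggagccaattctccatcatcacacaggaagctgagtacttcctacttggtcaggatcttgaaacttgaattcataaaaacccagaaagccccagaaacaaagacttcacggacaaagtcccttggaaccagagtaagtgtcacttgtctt

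AATC was present in 6 of the 7 promoters of members, and in 69.0% of the 35116 promoters in the table. GAGGAA was present in 3 of the 7, and in 27.9% of all promoters. CD86 and CSF1R each had another listed promoter, not shown, without GAGGAA. In the CSF1R promoter shown, 2 of its 3 GAGGAA matches adjoin. The motifs were chosen after the data were seen, and a match is only a match of letters. The promoters are on another build than the peaks, so no peak below is placed on a promoter or assigned to a gene start. By gene order in the same table the neighbours are TMCO6 and NDUFA2 for CD14, TMEM70 and JPH1 for LY96, CPSF6 and YEATS4 for LYZ, HMGXB3 and PDGFRB for CSF1R, XCR1 and CCR3 for CCR1, ILDR1 and CASR for CD86, and XRCC4 and HAPLN1 for VCAN. Peaks in a window may belong to such a neighbour.

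The peak lists differed in length, which bears on every count. H3K27ac lists held 24552 peaks with MC_2580, 41191 with the combination, 55793 with low-dose RA, 38808 with high-dose RA and 32789 in DMSO. H3K4me3 lists held 26271 to 29872 peaks in the treatments and 21688 in DMSO. LSD1 had 18822 peaks with MC_2580, with a lowest score of 357, and 12562 in DMSO, with a lowest score of 234, and GFI1 had 29601. Read numbers are not given, so depth is unknown. Scores quoted below are the authors' score per peak, which ranks peaks within 1 list and is not compared between lists. In every histone list many peaks share a score of 3100, and the highest score is 3233.

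CD14, the co-receptor that passes bacterial lipopolysaccharide to the Toll-like receptor complex, was set in the 40 kb window chr5:139970001-140010000. Its main difference lay at the left end of the window, over LSD1 and GFI1 peaks. H3K27ac at chr5:139967390-139974496 was called with MC_2580 (score 352), with the combination (1176) and, outside the window, in DMSO (58.3), and with neither RA dose. In the same stretch an H3K4me3 region at chr5:139971490-139973187 was called with MC_2580 (256) and the combination (77.1) alone. H3K4me1 was called there in all 5 conditions. An LSD1 peak at chr5:139970723-139973695 was called with MC_2580 (413, higher than 12.3% of its list). Inside it lay an LSD1 peak in DMSO (998.51, higher than 89.5% of the DMSO list). Both overlapped a GFI1 peak (206, higher than 88.4% of its list). A second LSD1 peak with MC_2580 at chr5:139968533-139970226 (764) overlapped LSD1 in DMSO (239) and GFI1 (56.0), both just outside the window. H3K4me3 over this second LSD1 peak, also outside the window, was called with MC_2580 (249), the combination (142) and low-dose RA (80.7).

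The combination stood apart in the middle of the CD14 window. H3K27ac at chr5:139990486-139996321 covered 5.84 kb with the combination (score 527) and 2.42 kb with low-dose RA (102), with no peak in the other 3 conditions. H3K4me3 at chr5:139987174-139989162 was called in all 4 treatments, with scores of 124 with MC_2580, 102 with the combination, 58.2 with low-dose RA and 106 with high-dose RA, and not in DMSO. H3K4me1 at chr5:139982132-139984120 was called with the combination alone (149). The right end of the window was shared by all lists. There H3K4me3 regions at chr5:139998135-140002330 and chr5:140004839-140009318 scored between 1867 and 3100, and an LSD1 peak at chr5:139998300-140000407 was called with MC_2580 only (620). An H3K4me1 region at chr5:140007601-140009874 (69.1 with MC_2580, 80.7 with the combination, 74.2 with high-dose RA and 119 in DMSO) was missing with low-dose RA only. So was an H3K4me2 region at chr5:140001223-140001926 (65.0 with MC_2580, 337 with the combination, 144 with high-dose RA and 66.0 in DMSO).

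In numbers, H3K27ac in the CD14 window covered 8.05 kb in 3 peaks with MC_2580, 17.0 kb in 4 with the combination, 9.42 kb in 4 with low-dose RA, 6.24 kb in 2 with high-dose RA and 5.92 kb in 2 in DMSO. H3K4me3 covered 11.6 kb in 4 peaks with MC_2580, 13.8 kb in 6 with the combination, 9.11 kb in 3 with low-dose RA, 9.61 kb in 3 with high-dose RA and 6.35 kb in 2 in DMSO. For both marks the combination had the most bases and DMSO the fewest. H3K4me1 varied less, from 14.4 kb in 9 peaks with low-dose RA to 22.5 kb in 7 with the combination, with 19.2 kb in 6 in DMSO. H3K4me2 ranged only from 6.09 kb with low-dose RA to 7.10 kb with the combination, with 6.98 kb in DMSO.

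LY96, also called MD-2, is the protein that binds lipopolysaccharide together with Toll-like receptor 4, and its window was the 70 kb at chr8:75050001-75120000. Away from the left edge, the window held 1 element with several marks, and most of these were called with MC_2580 and the combination only. At chr8:75064738-75068102 H3K27ac scored 147 with MC_2580 and 445 with the combination, H3K4me3 scored 483 with MC_2580 and 463 with the combination, and H3K4me2 scored 269 with MC_2580 and 278 with the combination. None of these 3 marks was called there with low-dose RA, with high-dose RA or in DMSO. H3K4me1 was called there with MC_2580 (341), the combination (422), high-dose RA (212) and DMSO (116), but not with low-dose RA. An LSD1 peak of 1.83 kb lay on the element with MC_2580 (661) and none was called in DMSO, and no GFI1 peak fell in the window.

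The left edge of the LY96 window, at chr8:75049414-75054997, carried all 4 marks in all 5 conditions, with H3K4me2 and H3K4me3 at 3100 in each. A lone H3K4me3 peak of 0.913 kb at chr8:75110929-75111841 was called with low-dose RA only (55.6) and carried no other mark. The whole-window sums therefore join the edge shared by all lists with places that were not shared, and the H3K4me3 sum with low-dose RA includes the lone peak. H3K27ac covered 4.20 kb with MC_2580 and 5.28 kb with the combination, in 2 peaks each, and 1.75 kb with low-dose RA, 1.99 kb with high-dose RA and 2.09 kb in DMSO, in 1 peak each. H3K4me3 covered 7.57 kb with MC_2580, 6.74 kb with the combination, 4.60 kb with low-dose RA, 3.97 kb with high-dose RA and 3.26 kb in DMSO. H3K4me2 had 3 peaks with MC_2580 and 3 with the combination, and 1 in each of the other conditions. H3K4me1 covered 6.97 kb in 2 peaks with MC_2580, 6.94 kb in 2 with the combination, 3.81 kb in 2 with low-dose RA, 4.77 kb in 3 with high-dose RA and 5.54 kb in 2 in DMSO.

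LYZ encodes lysozyme, which degrades bacterial cell walls, and was set in the 40 kb window chr12:68010001-68050000. In the left part of this window H3K27ac was broad with MC_2580, with the combination and in DMSO, and narrow with RA. Over the merged region chr12:68008096-68030566 it covered 21.6 kb with MC_2580, 19.7 kb with the combination, 2.46 kb with low-dose RA, 3.60 kb with high-dose RA and 19.0 kb in DMSO. The H3K4me3 region chr12:68027188-68032796 covered 4.44 kb with MC_2580, 5.61 kb with the combination, 2.42 kb with low-dose RA, 2.60 kb with high-dose RA and 2.65 kb in DMSO. Its score was 3100 with MC_2580 and the combination, 225 with low-dose RA, 218 with high-dose RA and 483 in DMSO, and a GFI1 peak (85.9) overlapped it.

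A wide LSD1 site at chr12:68017317-68025614 lay under the broad H3K27ac. It held 1 LSD1 peak of 7.56 kb with MC_2580 (score 855), 2 in DMSO (349 and 286) and 2 GFI1 peaks (83.5 and 79.3). No H3K27ac was called over this site with either RA dose. H3K4me3 at chr12:68020209-68024552 was likewise called with MC_2580 (178), the combination (112) and DMSO (63.2), and with neither RA dose. H3K4me2 showed 4 regions called with MC_2580 and the combination only. They lay at chr12:68018348-68018985 (115 with MC_2580 and 76.6 with the combination), chr12:68023100-68024216 (98.9 with MC_2580 and 88.9 with the combination), chr12:68029054-68029910 (203 with MC_2580 and 67.8 with the combination) and chr12:68029937-68030741 (497 with MC_2580 and 252 with the combination). The first and second of these lay on the LSD1 site and the others had no LSD1 or GFI1 peak. Other H3K4me2 differences were a region at chr12:68009650-68010211 called with MC_2580 (72.4) and in DMSO (107), and 1 at chr12:68041365-68041992 missing with low-dose RA only (92.9 with MC_2580, 161 with the combination, 75.8 with high-dose RA and 66.1 in DMSO).

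The right part of the LYZ window, at chr12:68038654-68045305, had H3K4me3 at 3100 in all 5 conditions and an LSD1 peak with MC_2580 only (360), which was higher than 0.765% of its list. Over the whole window H3K27ac covered 22995 bases in 3 peaks with MC_2580, 21213 in 4 with the combination, 5236 in 2 with low-dose RA, 6649 in 3 with high-dose RA and 19991 in 5 in DMSO. H3K4me3 covered 17.1 kb in 4 peaks with MC_2580, 16.5 kb in 4 with the combination, 12.4 kb in 4 with low-dose RA, 10.5 kb in 3 with high-dose RA and 10.1 kb in 4 in DMSO. H3K4me2 numbered 11 peaks with MC_2580 and 11 with the combination, 5 with low-dose RA, 6 with high-dose RA and 7 in DMSO. H3K4me1 had 5 to 7 peaks and covered between 20039 bases with low-dose RA and 28249 with the combination, with 25419 in DMSO.

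CD86, which co-stimulates T cells through CD28, was set in the 110 kb window chr3:123230001-123340000. H3K4me3 was nearly missing from this window in DMSO and was most extensive with the combination. It covered 10.0 kb in 4 peaks with MC_2580, 17.2 kb in 5 with the combination, 1.37 kb in 1 with low-dose RA, 2.59 kb in 2 with high-dose RA and 0.686 kb in 1 in DMSO. The highest-scoring H3K4me3 region of each treatment list, chr3:123256073-123262059, was called in all 4 treatments and not in DMSO. Its scores were 1017 with MC_2580, 2823 with the combination, 85.9 with low-dose RA and 147 with high-dose RA. A GFI1 peak (174) without LSD1 lay in it, and H3K27ac was called there with MC_2580 (71.5) and the combination (111) only.

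Both sites of the CD86 window where LSD1 and GFI1 overlapped had H3K4me3 with MC_2580 and the combination only. At chr3:123267091-123270348 it scored 130 with MC_2580 and 344 with the combination, and at chr3:123274426-123278805 it scored 199 with MC_2580 and 351 with the combination. LSD1 at the first of these scored 846 with MC_2580 and 405 in DMSO, with GFI1 at 68.4, and at the second 481 with MC_2580 and 487 in DMSO, with GFI1 at 125. H3K4me2 at the first was called with MC_2580 (146), the combination (158) and DMSO (56.9), and at the second with MC_2580 (126), the combination (192) and DMSO (97.6), and at neither with RA alone. The same held for the H3K4me2 region at chr3:123256779-123257911 (309 with MC_2580, 225 with the combination and 56.0 in DMSO). A further LSD1 peak at chr3:123286742-123288680 was called with MC_2580 only (372, higher than 3.44% of its list). A further GFI1 peak at chr3:123303208-123303942 (146) had no LSD1.

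H3K27ac was missing from the CD86 window with low-dose RA, although that list was the longest of the 5. It covered 13.3 kb in 4 peaks with MC_2580, 19.6 kb in 7 with the combination, no base with low-dose RA, 10.3 kb in 4 with high-dose RA and 9.44 kb in 3 in DMSO. The 3 regions at chr3:123266543-123270119, chr3:123274742-123282010 and chr3:123285710-123288897 accounted for all H3K27ac of DMSO and high-dose RA. At the widest of them, chr3:123274742-123282010, the scores were 491 with MC_2580, 3100 with the combination, 168 with high-dose RA and 347 in DMSO. H3K27ac at chr3:123260821-123262586 (195) and H3K4me3 at chr3:123278921-123280396 (140) were called with the combination alone. A small H3K4me3 region at chr3:123237746-123239865 scored 124 with MC_2580 and 124 with the combination, 57.5 with high-dose RA and 54.5 in DMSO. H3K4me2 covered 3.09 kb in 4 peaks with MC_2580, 6.66 kb in 6 with the combination, 0.481 kb in 1 with low-dose RA, 0.473 kb in 1 with high-dose RA and 3.51 kb in 5 in DMSO. H3K4me1 covered 28.6 kb with MC_2580, 36.8 kb with the combination, 19.8 kb with low-dose RA, 24.8 kb with high-dose RA and 24.9 kb in DMSO.

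**Figure D1:**
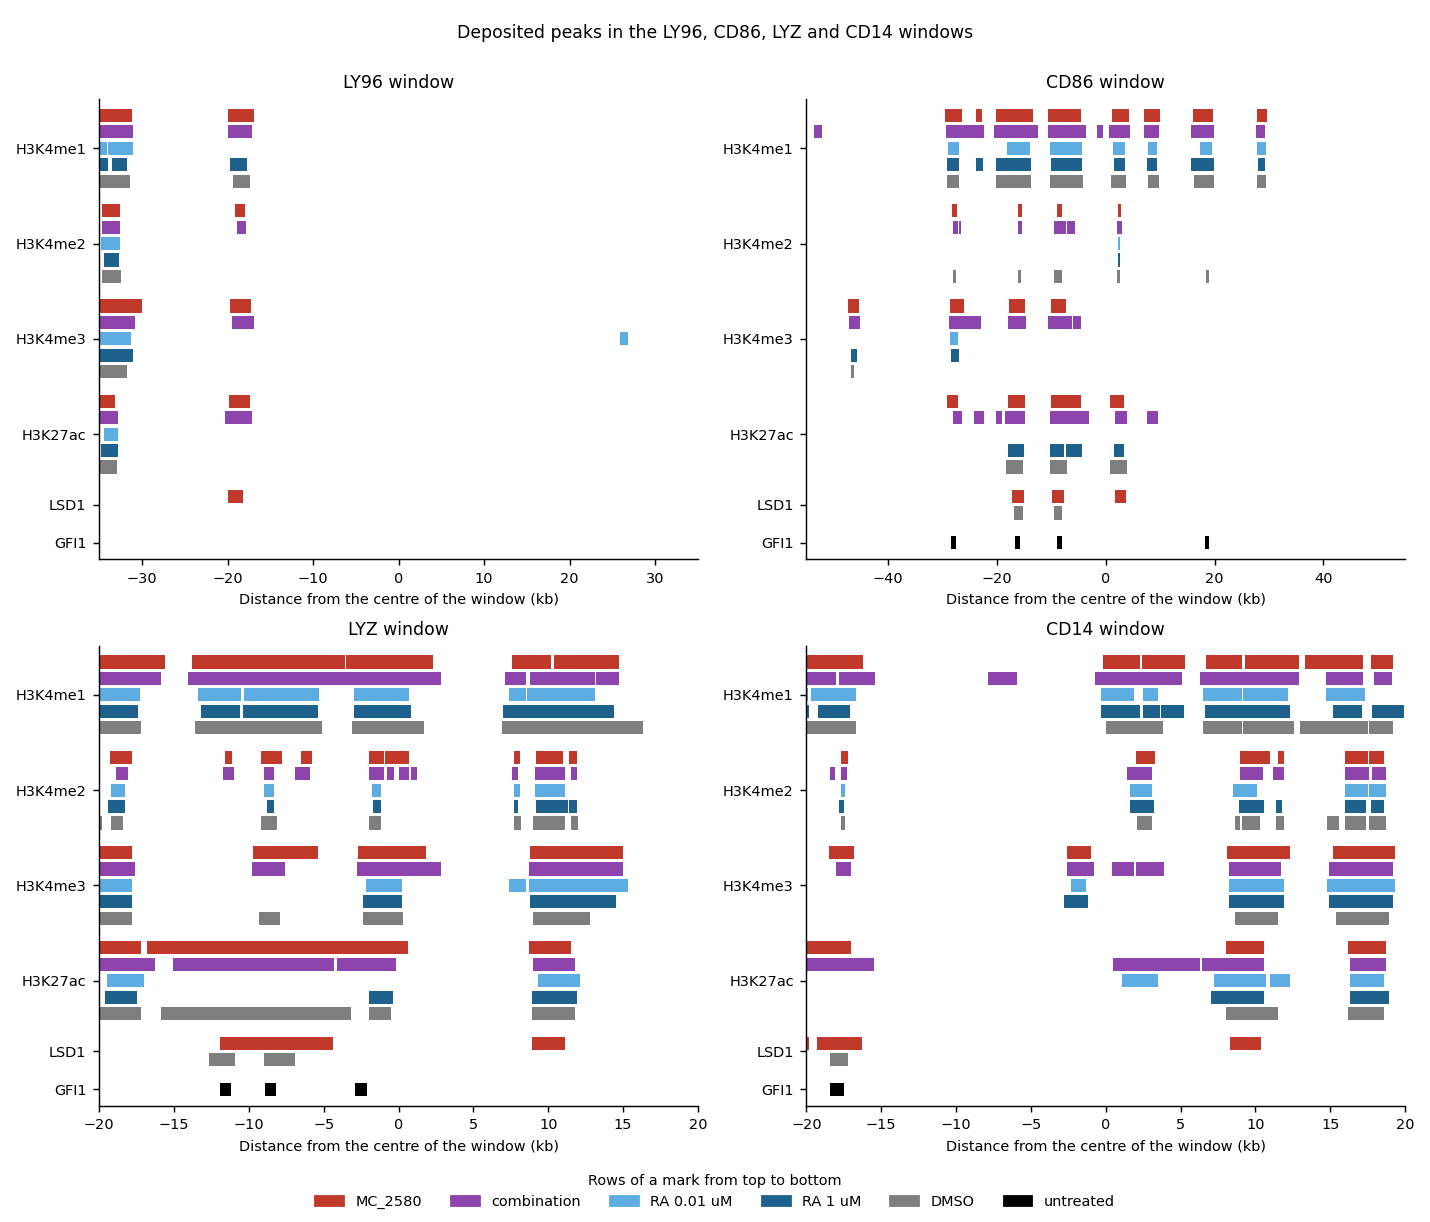
Deposited peaks in the LY96, CD86, LYZ and CD14 windows, as bars along the distance from the window's centre (kb), with 1 row per library and antibodies from top to bottom. The isolated LY96 element carries H3K4me2, H3K4me3 and H3K27ac with MC_2580 and the combination only, and the CD86 window has no H3K27ac peak with RA at 0.01 µM.

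CSF1R, the receptor for macrophage colony-stimulating factor, was set in the 100 kb window chr5:149390001-149490000, which held the most LSD1 and GFI1 peaks of the 7. H3K4me3 at chr5:149440165-149447290 was wide in all 4 treatments and narrow in DMSO. It covered 6.35 kb with MC_2580, 7.07 kb with the combination, 6.32 kb with low-dose RA, 7.02 kb with high-dose RA and 2.90 kb in DMSO. The treatments had 1 peak each there, with scores of 1181 with MC_2580, 3100 with the combination, 3100 with low-dose RA and 3212 with high-dose RA, and DMSO had 2 narrow peaks, the higher at 133. H3K4me2 at chr5:149440391-149443788 was called in every condition and covered 2.46 kb with MC_2580, 3.40 kb with the combination, 1.90 kb with low-dose RA, 2.52 kb with high-dose RA and 1.22 kb in DMSO.

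H3K27ac in the right part of the CSF1R window, at chr5:149471770-149488697, was called in all 4 treatments and not in DMSO. It covered 16.5 kb with MC_2580 (score 58.4), 14.7 kb with the combination (2282), 15.9 kb with low-dose RA (663) and 12.0 kb with high-dose RA (789). The MC_2580 peak was close to the lowest score of its list, 50. In the left part of the window H3K27ac at chr5:149402751-149432150 covered between 25.6 and 29.2 kb in each of the 5 conditions. H3K27ac at chr5:149462183-149464623 was called with the combination (360) and high-dose RA (51.2), and H3K27ac at chr5:149465068-149469625 was missing with MC_2580 only, with scores of 159 with the combination, 164 with low-dose RA, 108 with high-dose RA and 243 in DMSO.

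LSD1 and GFI1 formed 6 sites in the CSF1R window. At chr5:149422397-149429591 LSD1 scored 3049.7 with MC_2580, above 97.3% of its list, and 1422 in DMSO, above 95.3% of its list, and GFI1 scored 650, above 98.1% of its list. At chr5:149440088-149444110, overlapping the H3K4me3 region described first, LSD1 scored 1704 with MC_2580 and 848 in DMSO, and GFI1 scored 168. At chr5:149408464-149415091 LSD1 scored 1192 with MC_2580 and 414 and 240.3 in 2 DMSO peaks, without GFI1. LSD1 at chr5:149417418-149419474 was called in DMSO only (377), with 2 GFI1 peaks (378 and 57.5). LSD1 at chr5:149430312-149431291 was called with MC_2580 only (419, higher than 13.4% of its list), and GFI1 at chr5:149403123-149404039 (122) had no LSD1. H3K27ac covered all 6 sites in every list but low-dose RA, which lacked it at 1 of them.

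Over the CSF1R window H3K4me3 covered 12.1 kb in 3 peaks with MC_2580, 10.9 kb in 2 with the combination, 11.5 kb in 3 with low-dose RA, 10.5 kb in 2 with high-dose RA and 5.61 kb in 3 in DMSO. H3K27ac covered 57.9 kb in 4 peaks with MC_2580, 62.3 kb in 8 with the combination, 54.7 kb in 9 with low-dose RA, 55.1 kb in 11 with high-dose RA and 48.6 kb in 6 in DMSO. H3K4me2 covered 12.6 kb in 12 peaks with MC_2580, 18.0 kb in 15 with the combination, 12.1 kb in 14 with low-dose RA, 13.0 kb in 17 with high-dose RA and 9.13 kb in 7 in DMSO. In these 3 marks DMSO covered the fewest bases of the 5 lists. H3K4me1 covered 46.0 kb with low-dose RA to 58.9 kb with the combination, with 57.4 kb in DMSO.

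The added H3K4me2 calls of the CSF1R window were short. The region chr5:149483624-149484666 was called in all 4 treatments, with scores of 51.1 with MC_2580, 382 with the combination, 60.9 with low-dose RA and 60.6 with high-dose RA, and not in DMSO. The region chr5:149428691-149429209 was called with the combination (157), low-dose RA (62.9) and high-dose RA (93.4). At chr5:149403352-149404299 H3K4me2 was called with MC_2580 (140), the combination (56.5) and high-dose RA (70.9). The region chr5:149439593-149440279 was called with the combination (154) and low-dose RA (51.3), chr5:149465696-149466403 with the combination (83.8) and high-dose RA (121), and chr5:149472739-149473399 with the combination alone (141). H3K4me1 at chr5:149462136-149463787 was called with MC_2580 (64.8), the combination (427) and high-dose RA (80.0).

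CCR1, a receptor for chemokines such as CCL3 and CCL5, was set in the 50 kb window chr3:46200001-46250000. Here H3K27ac was most extensive in lists with RA. It covered 11.3 kb in 3 peaks with MC_2580, 27.8 kb in 5 with the combination, 17.1 kb in 5 with low-dose RA, 32.2 kb in 3 with high-dose RA and 13.5 kb in 4 in DMSO. The region chr3:46220647-46235612 covered 4.92 kb with MC_2580, 12.3 kb with the combination, 6.48 kb with low-dose RA, 15.0 kb with high-dose RA and 6.85 kb in DMSO. The region chr3:46235899-46260486, which runs past the window towards CCR3 and CCR2, covered 3.61 kb with MC_2580, 20.1 kb with the combination, 12.7 kb with low-dose RA, 24.6 kb with high-dose RA and 8.42 kb in DMSO. MC_2580 alone had fewer H3K27ac bases than DMSO in both regions.

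H3K4me3 in the CCR1 window covered 7.79 kb in 2 peaks with MC_2580, 11.1 kb in 3 with the combination, 12.6 kb in 3 with low-dose RA, 11.5 kb in 3 with high-dose RA and 4.23 kb in 1 in DMSO. Most of it was the region chr3:46217479-46225798, which covered 4.30 kb with MC_2580, 7.49 kb with the combination, 8.14 kb with low-dose RA, 7.58 kb with high-dose RA and 4.23 kb in DMSO. MC_2580 and DMSO were alike in its width, and the 3 lists with RA were wider. H3K4me3 at chr3:46209090-46212578 was called in all 4 treatments, with scores of 180 with MC_2580, 131 with the combination, 153 with low-dose RA and 169 with high-dose RA, and not in DMSO. LSD1 was called at 2 sites in both conditions, chr3:46203320-46205649 (789 with MC_2580 and 294 in DMSO) and chr3:46237436-46240618 (587 with MC_2580 and 370.3 in DMSO), neither with GFI1. A weak GFI1 peak (57.2) at the left edge, chr3:46199800-46200474, had no LSD1.

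H3K4me2 in the CCR1 window covered 3.01 kb in 4 peaks with MC_2580, 5.41 kb in 3 with the combination, 4.61 kb in 4 with low-dose RA, 5.56 kb in 7 with high-dose RA and 4.04 kb in 5 in DMSO. Its 1 partial region with a score above 100 was chr3:46219394-46220014, called with high-dose RA only (158). H3K4me1 covered 27.4 kb with MC_2580, 35.1 kb with the combination, 31.9 kb with low-dose RA, 32.8 kb with high-dose RA and 25.2 kb in DMSO.

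VCAN encodes versican, a proteoglycan of the extracellular matrix that monocytes secrete, and was set in the widest window, the 150 kb at chr5:82780001-82930000. It was the window with the fewest peaks, and all but 1 of them lay in 1 place. At chr5:82802426-82807224 H3K4me3 covered 4.80 kb in 1 peak with MC_2580 (score 1477), 4.50 kb with the combination (728), 3.39 kb with low-dose RA (851), 2.19 kb with high-dose RA (561) and 2.85 kb in DMSO (281). H3K4me2 at chr5:82803961-82806708 scored 3100 in all 4 treatments and 2259.6 in DMSO. An LSD1 peak was called there with MC_2580 only (393, higher than 8.33% of its list), and no GFI1 peak fell in the window. The only H3K27ac peak of the window was a weak one with low-dose RA (54.2). H3K4me1 covered 3.62 kb with MC_2580, 3.69 kb with the combination, 1.88 kb with low-dose RA, 1.94 kb with high-dose RA and 4.23 kb in DMSO. No VCAN region called in part of the lists reached a score of 100.

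**Figure D2:**
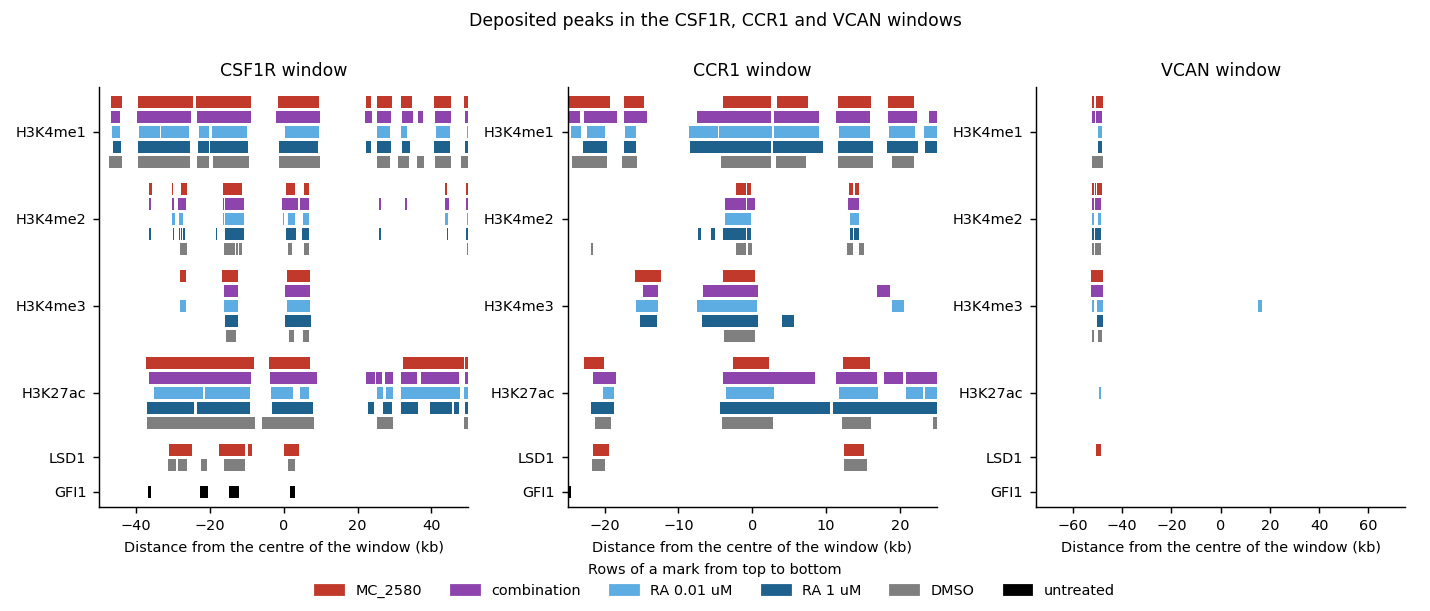
Deposited peaks in the CSF1R, CCR1 and VCAN windows, as bars along the distance from the window's centre (kb), with 1 row per library. H3K4me3 near the centre of the CSF1R window is split and narrow in DMSO and 6.32 to 7.07 kb wide in the treatments, and all VCAN peaks but 1 lie near 1 end of its window.

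Across the 22 LSD1 or GFI1 sites of the 7 windows, LSD1 was called at 16 with MC_2580 and at 11 in DMSO, at 10 in both. All 7 windows had LSD1 with MC_2580 and 5 had it in DMSO, with none in the LY96 and VCAN windows. No share over the genome was computed for these counts of windows. The MC_2580 list was also the longer, with 18822 peaks against 12562, and the VCAN peak was higher than only 8.33% of it. GFI1 was called at 13 sites in 5 windows, again with none in those of LY96 and VCAN. GFI1 and LSD1 overlapped at 8 sites, LSD1 was without GFI1 at 9 and GFI1 without LSD1 at 5. Of the 16 LSD1 peaks with MC_2580, 6 were gained, that is, had no overlapping DMSO peak, against 41.4% of the whole list, and 1 of the 12 DMSO peaks was lost, that is, had no overlapping peak with MC_2580, against 7.79%. Both shares were near those of the whole lists. With lists of equal length the MC_2580 list kept 10 LSD1 peaks in the windows, of which 2 were gained, and 3 of the 12 DMSO peaks were lost. No share of the whole lists was computed under that setting.

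Overlap of LSD1 with GFI1 in the windows was set beside that of the whole lists. LSD1 was called on 9 of the 14 GFI1 peaks, against 40.4% of all GFI1 peaks, and GFI1 on 7 of the 16 LSD1 peaks of MC_2580, against 44.7% of that list, and on 8 of the 12 LSD1 peaks of DMSO, against 56.8%. With a minimum score of 100, which leaves 8 GFI1 peaks, 5 of them had LSD1, and no share of all GFI1 peaks was computed at that score.

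Histone marks over the 16 LSD1 peaks of MC_2580 depended on the condition. H3K27ac was called on 15 with MC_2580 (74.9% of the whole LSD1 list), on 15 with the combination (86.4%), on 9 with low-dose RA (83.3%), on 11 with high-dose RA (82.5%) and on 13 in DMSO (81.3%). The windows thus had the fewest H3K27ac-marked LSD1 peaks with low-dose RA, and the whole list with MC_2580. H3K4me3 was called on 12 of the 16 with MC_2580 (77.9% of the whole list), 11 with the combination (73.9%), 7 with low-dose RA (72.1%), 5 with high-dose RA (69.9%) and 6 in DMSO (65.0%). Among all 22 sites H3K27ac was called at 19 with MC_2580, 19 with the combination, 10 with low-dose RA, 13 with high-dose RA and 15 in DMSO. H3K4me3 was called at 14 sites with MC_2580, 13 with the combination, 9 with low-dose RA, 7 with high-dose RA and 7 in DMSO. For these counts over sites no share over the genome was computed. The sites are not all separate, since several at CSF1R lay under 1 H3K27ac peak of 29.2 kb with MC_2580.

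**Figure D3:**
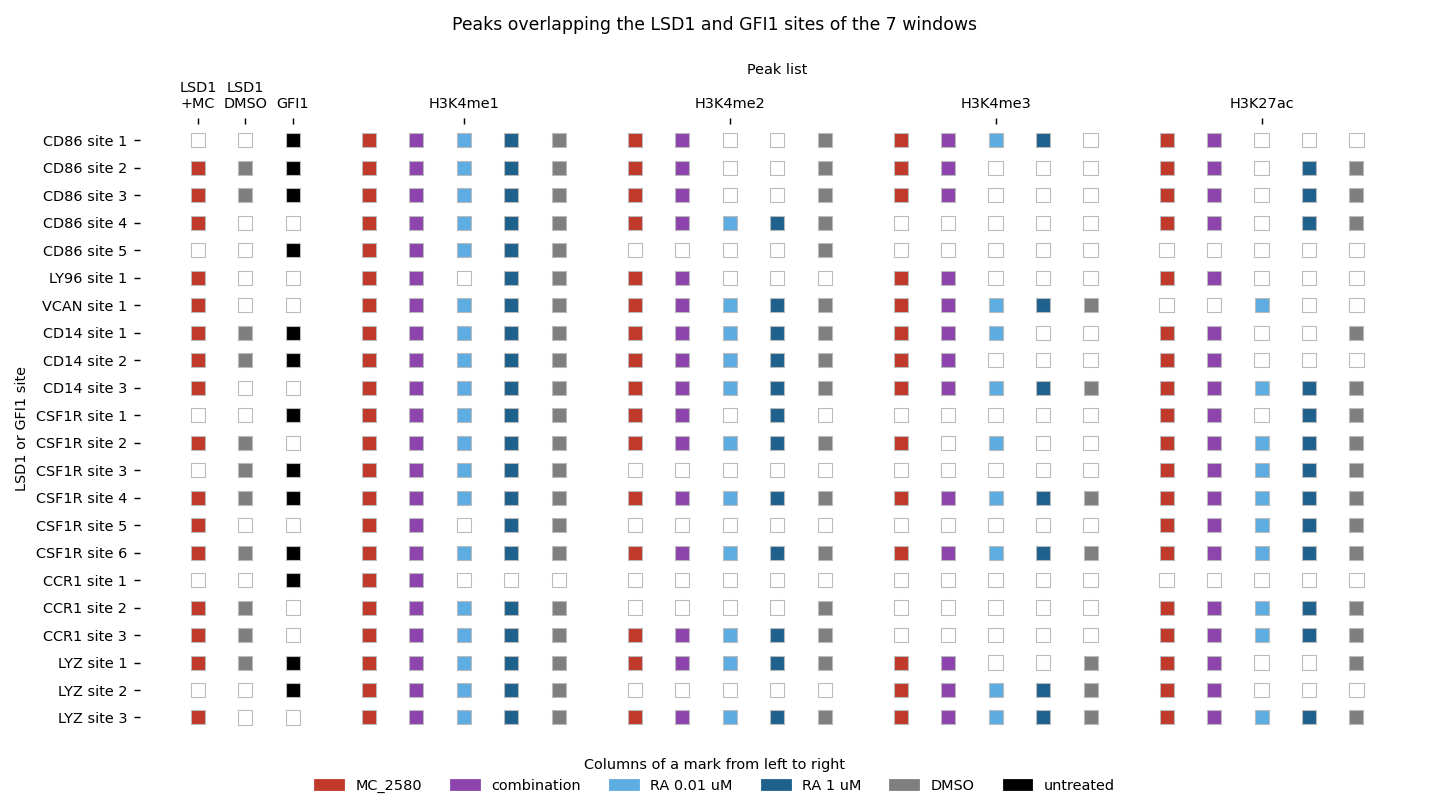
Peaks of each list over the 22 LSD1 or GFI1 sites, with sites numbered from left to right within a window. A filled square stands for an overlapping peak; LSD1 +MC is LSD1 with MC_2580, and the columns of a mark run from MC_2580 to DMSO. H3K27ac is filled at 19 sites with MC_2580 and at 10 with RA at 0.01 µM. No share over the genome was computed for these counts of sites, and the sites are not all separate. Over the whole LSD1 list of MC_2580, H3K27ac was called on 74.9% of peaks with MC_2580 and on 83.3% with RA at 0.01 µM.

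The calling pattern was then followed over regions, each of them the union of overlapping peaks from all 5 lists of 1 mark. Regions called with MC_2580 and the combination, and in no other list, were 11 in the windows, with 4 at LYZ, 3 at CD86, 3 at LY96 and 1 at CD14. They made up 5 of 51 regions for H3K4me2 (2.80% of all regions of the genome), 4 of 29 for H3K4me3 (2.79%) and 2 of 25 for H3K27ac (0.500%), and none of 38 for H3K4me1 (1.79%). Of the 11, 9 overlapped an LSD1 or GFI1 peak, against 48.5% of all regions of this pattern. For comparison, 70 of all 143 regions in the windows overlapped one, against 37.6% of all regions of the genome. This overlap was counted after the pattern had been seen. The 11 regions are not all separate, since the 3 at LY96 are different marks on 1 LSD1 peak.

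Regions called in the 3 lists with RA, and in no other, numbered 2 in the windows, too few to set above or below the shares of the genome. They were 2 of 51 for H3K4me2 (1.97% of all regions), both at CSF1R, and none of 38 for H3K4me1 (3.66%), of 29 for H3K4me3 (1.85%) or of 25 for H3K27ac (5.44%). Regions called in all 4 treatments and not in DMSO were 3 of 29 for H3K4me3 (6.30%), at CD86, CD14 and CCR1, 2 of 51 for H3K4me2 (2.71%) and 1 of 25 for H3K27ac (0.654%), both marks at CSF1R, and none of 38 for H3K4me1 (1.30%). Regions called in all 5 lists were 73 of the 143. By mark they were 31 of 38 for H3K4me1 (54.0% of all regions), 21 of 51 for H3K4me2 (47.8%), 10 of 29 for H3K4me3 (52.6%) and 11 of 25 for H3K27ac (23.7%).

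**Figure D4:**
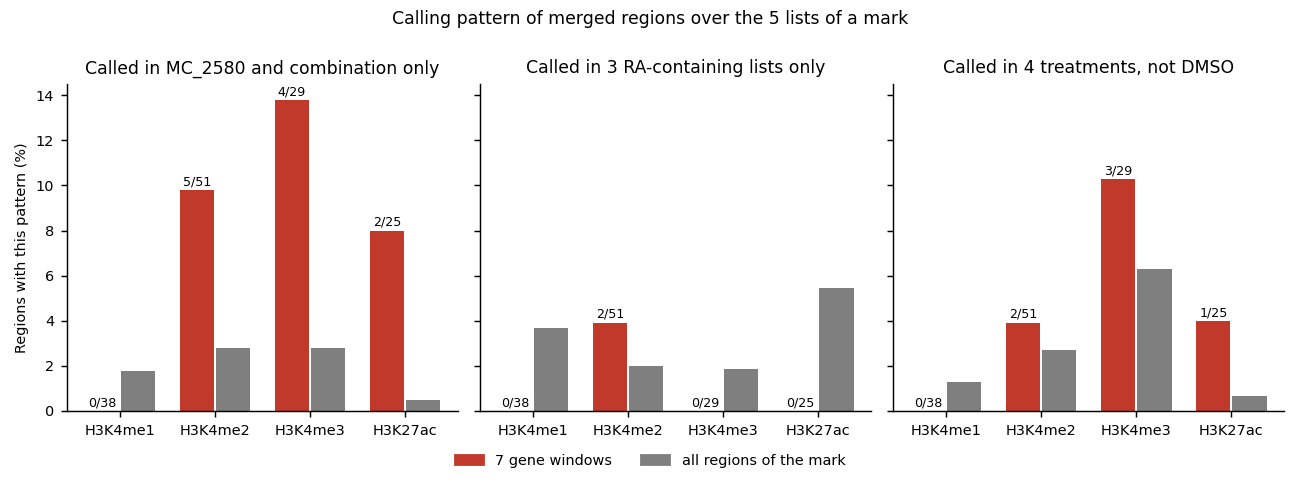
Share of merged regions (%) with each calling pattern, by mark, in the 7 windows and over all regions of the genome, with counts above the bars of the windows. For H3K27ac, 2 of 25 window regions were called with MC_2580 and the combination only, against 0.500% of all regions.

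Bases covered by peaks gave the comparison of each treatment with DMSO by window, with 100 kb tiles of the genome that had a peak of the mark in either list as the background. With MC_2580, H3K27ac covered more bases than in DMSO in 5 of 7 windows, 118 kb in all with MC_2580 and 99.6 kb in DMSO, against 24.9% of tiles. That list as a whole covered 0.748 of the bases that the DMSO list covered. The exceptions were CCR1, with fewer bases with MC_2580, and VCAN, with none in either. Only 1 window, LY96, had at least 1.5 times the DMSO bases, 4.20 kb with MC_2580 and 2.09 kb in DMSO. At CSF1R the 57.9 kb with MC_2580 included a 16.5 kb peak with a score of 58.4, close to the lowest of its list. DMSO covered 48.6 kb there. With a minimum score of 100 in every list, 4 of 7 windows had more H3K27ac bases with MC_2580. With H3K4me3 all 7 windows had more, 70.9 kb with MC_2580 and 33.0 kb in DMSO, but so did 97.5% of tiles. H3K4me1 had more in 6 of 7 (46.7% of tiles), and the sums were 172 kb with MC_2580 and 162 kb in DMSO. H3K4me2 had more in 4 of 7 (58.1%), with 41.4 kb with MC_2580 and 35.0 kb in DMSO. With a minimum score of 100 in every list these 2 counts were 3 of 7 for H3K4me1 and 7 of 7 for H3K4me2. No share of tiles was computed at that minimum score, for these 2 marks or for H3K27ac.

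With the combination, windows with more bases than in DMSO were 6 of 7 for H3K27ac (60.0% of tiles), 7 of 7 for H3K4me3 (84.2%), 7 of 7 for H3K4me2 (56.4%) and 6 of 7 for H3K4me1 (52.6%). The covered sums were 153 kb for H3K27ac, 80.7 kb for H3K4me3, 52.2 kb for H3K4me2 and 192 kb for H3K4me1. For H3K4me3 this was 2.44 times the DMSO sum in the windows and 1.32 times over the whole lists. All 4 sums were the highest of the 5 conditions.

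With low-dose RA, H3K27ac covered more bases than in DMSO in 4 of 7 windows (68.6% of tiles), but less in sum, 89.2 kb, whereas the whole list covered 1.56 times the bases of DMSO. H3K4me3 had more in 7 of 7 (94.6%), H3K4me2 in 2 of 7 (33.1%) and H3K4me1 in 1 of 7 (18.6%), the 1 being CCR1. With high-dose RA, H3K27ac had more in 4 of 7 (58.7%) with a sum of 112 kb, H3K4me3 in 6 of 7 (87.3%), H3K4me2 in 2 of 7 (33.2%) and H3K4me1 in 1 of 7 (26.8%). For both doses the counts in the methylation marks were near the share of tiles.

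Adding MC_2580 to low-dose RA gave more H3K27ac bases in 6 of 7 windows, against 38.0% of tiles, with 153 kb in the combination and 89.2 kb with low-dose RA alone. VCAN was the exception. The whole H3K27ac list of the combination covered 0.748 of the bases of low-dose RA. H3K4me1 had more in 7 of 7 (89.7% of tiles), H3K4me2 in 7 of 7 (75.6%) and H3K4me3 in 4 of 7 (25.1%), namely CD86, LY96, CD14 and LYZ. Tiles differ from the windows in length and in how much of them is marked, and this was not adjusted for.

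**Figure D5:**
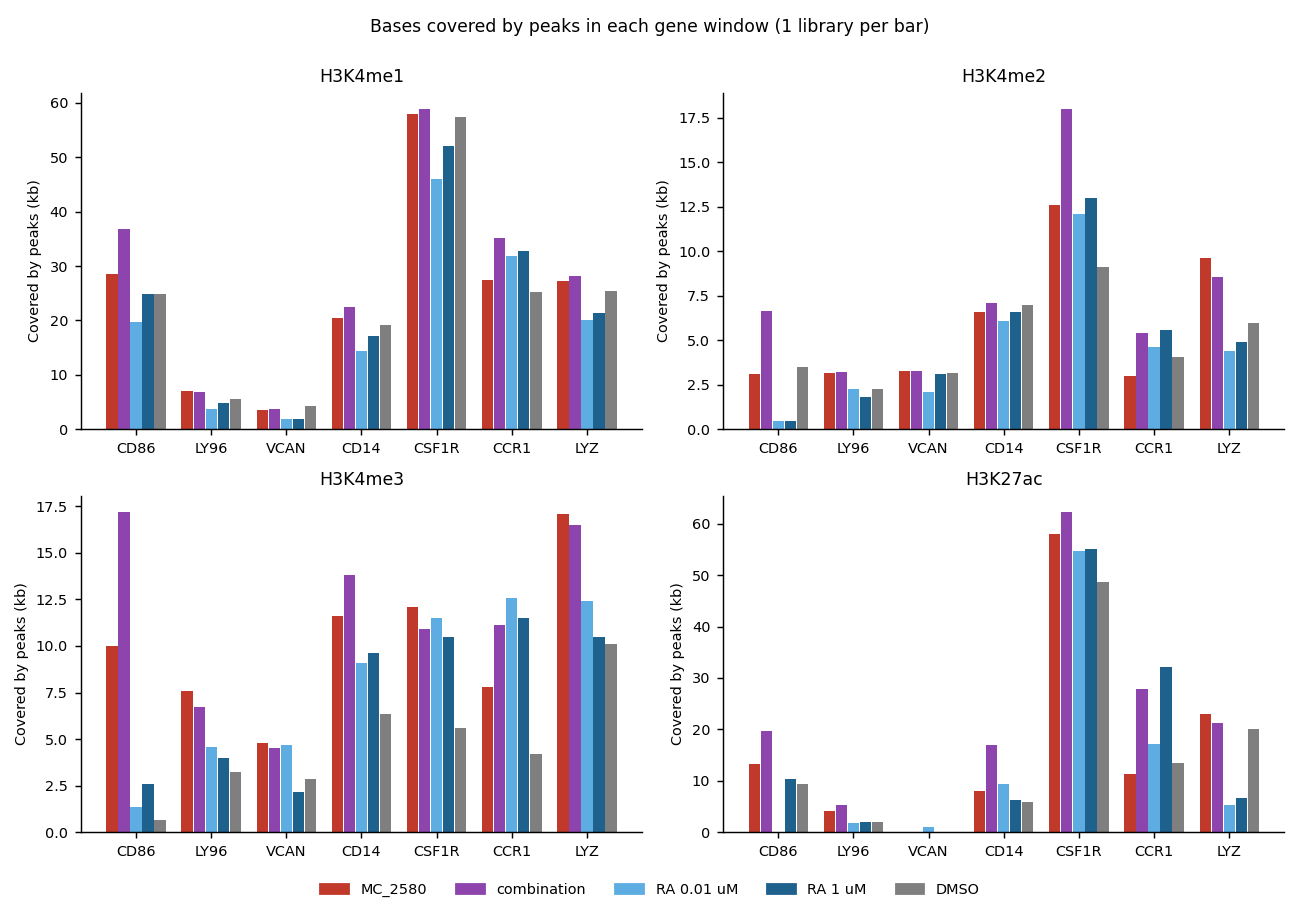
Bases covered by peaks (kb) in each window, by mark, with 1 library per bar and bars from MC_2580 to DMSO. In the CD86 window H3K4me3 covers 10.0 kb with MC_2580 and 17.2 kb with the combination, against 0.686 kb in DMSO, and H3K27ac has no bar with RA at 0.01 µM.

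Gained and lost peaks, counted by overlap of at least 1 base, gave the following over the 4 marks. MC_2580 gained 22 of 125 peaks against DMSO (17.6%, against 18.0% over the whole lists) and lost 6 of the 110 in DMSO (5.45%, against 15.7%). The share gained was thus near that of the whole lists. The combination gained 44 of 147 (29.9%, against 26.2%) and lost 4 of 110 (3.64%, against 12.2%). Low-dose RA gained 21 of 119 (17.6%, against 27.7%) and lost 23 of 110 (20.9%, against 17.1%). High-dose RA gained 22 of 127 (17.3%, against 22.2%) and lost 14 of 110 (12.7%, against 15.8%). Against low-dose RA, the combination gained 52 of 147 (35.4%, against 22.4%) and lost 7 of 119 (5.88%, against 18.9%). Since the comparisons with DMSO share 1 DMSO library per mark, they are not independent of each other.

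By mark, H3K27ac with MC_2580 gained 3 of 19 peaks (11.2% of the whole list) and lost 2 of the 21 in DMSO (35.0%). In the combination 10 of 30 were gained (37.1%) and none of 21 lost (21.2%). With the low RA dose 4 of 22 were gained (53.9%) and 6 of 21 lost (18.3%), and with the high dose 4 of 24 were gained (33.3%) and 2 of 21 lost (20.9%). The median score of the 21 in DMSO was 431, against 223 for the whole DMSO list. With a 50% reciprocal overlap, H3K27ac losses were 8 of 21 with MC_2580 (44.1% of the whole list) and 6 of 21 with the combination (41.4%). H3K4me3 gains were 8 of 20 with MC_2580 (33.5%), 11 of 24 with the combination (26.6%), 8 of 19 with low-dose RA (29.2%) and 4 of 15 with high-dose RA (25.6%). By overlap of at least 1 base, H3K4me3 losses were 0 of 14 with MC_2580 (2.20%), 0 of 14 with the combination (6.29%), and 2 of 14 with each RA dose (3.97% with low-dose RA and 6.12% with high-dose RA). With a 50% reciprocal overlap they were 6 of 14 with MC_2580 (18.5%) and 4 of 14 with the combination (16.8%).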

How the data were processed

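ChIP-seq of NB4 cells gave 23 peak lists, 1 per antibody and condition, and 2 input samples entered no comparison. Per the submitters' processing notes, reads had gone through MACS 1.4.1, Bowtie 1.0.1, FastQC (0.10.0 and 0.11.5), CASAVA 1.8 and bcl2fastq 2, named in no order, on hg18. Each deposited list gives a score per peak as the authors' caller wrote it (−10 times log10 of the p-value), with many peaks at 3100. It was used only to describe, rank and filter peaks within a list. Only the LSD1 lists start above a score of 50, by a filter that the labels do not describe. A start below 0 in 8 peaks was set to 0.

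Groups follow the treatment field of the labels. Windows, overlaps of at least 1 base, covered bases, merged regions and 100 kb tiles were computed with Python 3.11.15 and NumPy 2.4.6, and figures were drawn with Matplotlib 3.10.9. The code was tested on simulated lists. With 1 library per group no test was run. The text names every LSD1 and GFI1 peak, the strongest and widest peaks that carry a comparison, and each region called in part of the lists whose score reaches 100 in 1 of them. The members, the lists and these rules were chosen with earlier results of these data known. Alternatives were a minimum score of 100, lists of equal length, peak centres in the window, windows widened by 20 kb or narrowed by 10 kb, joining of peaks within 1 kb, a 50% reciprocal overlap, 1 minimum score for both LSD1 lists and centres within 500 bases. No coordinates were converted between builds, and gene annotation on hg18 was not used here.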

Additional observations from a re-analysis of the deposited data

How the results depend on the processing

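The number of window and mark pairs with more covered bases stayed within 1.5 times its value for each of the 5 comparisons under the 6 settings run for it. By mark, windows with more bases with MC_2580 were 4 to 6 of 7 for H3K27ac, but with a minimum score of 100 they were 3 for H3K4me1 (6 as reported) and 7 for H3K4me2 (4 as reported). With low-dose RA those of H3K27ac were 2 (4 as reported) with lists of equal length and with narrowed windows, and those of H3K4me2 were 1 (2 as reported) with peaks joined. With high-dose RA those of H3K4me1 were up to 3 (1 as reported) and those of H3K4me2 4 with a minimum score of 100 (2 as reported). Gained and lost peaks depended more on the setting. For the counts that follow no share of the whole lists was computed under the same setting. They can therefore not be set beside the shares given above. With a 50% reciprocal overlap, MC_2580 gained 41 and lost 26, the combination lost 28, low-dose RA gained 41, the high dose gained 46 and lost 31, the combination against the low dose lost 44, and LSD1 gained 10 and lost 7. With lists of equal length the combination gained 28, low-dose RA gained 11, high-dose RA gained 13, the combination against low-dose RA lost 4, LSD1 gained 2 and lost 3, and the MC_2580 list kept 10 LSD1 peaks. With a minimum score of 100, low-dose RA gained 9, the combination against low-dose RA lost 1, GFI1 peaks were 8, 5 of them with LSD1, and 4 LSD1 peaks of MC_2580 had GFI1. With peaks within 1 kb joined the combination gained 26 and lost 2, the low dose gained 12 and lost 15, the high dose lost 9, and the combination against low-dose RA gained 32. With windows narrowed by 10 kb MC_2580 lost 3, the combination lost 1, low-dose RA lost 15, and the combination against low-dose RA lost 4. With windows widened by 20 kb the combination lost 7 and LSD1 gained 10. The other 3 settings moved none of these counts by over 1.5 times. The cause of these changes was not tested. No paired analysis was possible because each group has 1 library and its replicate number pairs nothing. Depth is unknown, so a missing peak shows only that none was called.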
